A study of Mus musculus with 30 samples.

Results

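The 40 genes described here encode proteins that carry a cell through mitosis, and 38 of them were read by 66 probe sets of the array, out of 12393 named genes and 22626 probe sets in all. They were chosen by name: every probe set whose array annotation gives one of the 40 symbols was taken, and Ccnb1 and Cdca8, which no probe set carried under these symbols, were not analysed here. In newborn mice without ERRγ, 31 of 37 tested genes were lower in stomach and 22 of 35 in salivary tissue. Of all tested probe sets 12.2% and 4.72% were lower there. Among the 31 and 22 genes, 3 and 2 had null means under the level required for testing. Median wild-type to null ratios over all 38 genes were 1.72 and 1.81. In kidney 3 of 37 tested genes were lower (0.368% of all tested probe sets were), and in brain none passed the test (0% of all did). In liver 1 of 37 tested genes passed, Nusap1, which was higher (3.47% of all tested probe sets were) but no longer passed in 11 of 17 alternative analyses. Other measures moved with the same groups: a control measure that grows as RNA breaks down was 3.77 ± 0.22 in null stomach and 2.60 ± 0.45 in wild-type stomach (SD, n = 3 each), and skeletal muscle genes averaged higher on all null salivary arrays than on any wild-type one, with brown fat genes higher than on all but wild-type replicate 3. With the first as a covariate 0 member probe sets passed in stomach, where 2 of the whole array were lower. The median member difference was then -0.94. With the brown fat gene Ucp1 or the muscle gene Acta1 as a covariate 8 and 0 passed in salivary tissue, where 164 and 0 of the whole array were lower. Median member differences were then -0.92 and -1.23. Neither the control measure in stomach nor Acta1 in salivary tissue overlapped between null and wild-type arrays. Genotype and these covariates therefore cannot be told apart, and the adjusted medians of -0.94 and -1.23 are uncertain.

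Values are log2 signals of Affymetrix MOE430A arrays, on which a difference of -1 is a halving. Stomach, salivary tissue, kidney, liver and brain were taken, and each had 3 arrays of ERRγ null mice and 3 of wild-type mice, 30 arrays in 10 groups. All animals were neonatal, of mixed SV129/C57BL/6 background and of unknown sex, fed standard chow without restriction of food or water. ERRγ, the product of Esrrg, belongs to the orphan nuclear receptors and is known for genes of mitochondrial metabolism, and the title names the heart, stomach and kidney, of which heart was not analysed here. The sources used here do not tell how the null allele was made or whether the loss was limited to some cells. Nothing in the labels says that each array of a group is another animal, so a p-value measures only the spread between these arrays, which may be technical in part, and their number limits the precision.

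Null and wild-type arrays were compared tissue by tissue. Mitosis is driven by the kinase CDK1 with cyclins A and B. The spindle checkpoint holds the anaphase-promoting complex, a ubiquitin ligase, inactive until every kinetochore is attached, and that complex then destroys securin and cyclin B so that sister chromatids part and the cell divides. Transcripts of these genes are made mainly from late S phase to mitosis, so in a whole tissue they follow how many cells are cycling. Newborn tissues still grow, and the newborn liver also holds blood-forming cells.

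The arrays held the tissue their labels name. Each tissue's own marker list, 5 to 9 genes measured, averaged 8.71 to 12.96 on its own arrays. On the arrays of the other tissues the lists stayed at or below 6.28, with the exception of the liver list, which reached 7.53 in null kidney and 10.75 in wild-type stomach. Esrrg, dim on all arrays, checks no genotype here, because where its single probe set lies relative to the deleted part is unknown. It read 6.48 ± 0.09 in null stomach and 5.99 ± 0.05 in wild-type stomach (SD, n = 3 each; limma, Benjamini-Hochberg adjusted p = 0.0312), and its differences of -0.03 to 0.16 in the other tissues did not pass. Xist, made from the inactive X chromosome, was low on null replicate 1 and on wild-type replicate 3 in every tissue (6.34 to 7.22) and high on the others (10.68 to 11.38), so each group held the same mix by this measure.

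Start-site sequence was read for the members because many of them move together. RefSeq start sites on build GRCm38.p6 gave a window of 300 bases, 250 before the start and 50 from it, for 31 of the 38 genes and for 9888 genes of the array. Promoters of mitotic genes are known for a pair of elements: the cell cycle genes homology region, written TTTGAA or TTCGAA, which recruits the MuvB complexes that silence and then activate these genes, and the box CCAAT bound by NF-Y. On either strand, the homology region was matched in 23 of the 31 members (74.2%) and in 14.7% of the array's genes. The CCAAT box was matched in 23 members (74.2%) and in 38.1% of the array's genes, and both were present in 20 members (64.5%) and in 5.96% of the array's genes. At least 2 CCAAT boxes stood in 16 members (51.6%) and in 14.0% of the array's genes. TTTGAA and TTCGAA taken singly were in 71.0% and 9.68% of members, and in 13.0% and 1.93% of the array's genes. The E2F forms TTTCCCGC and TTTGGCGC were in no member window and in 2.67% of the array's genes. TTCGAA reads the same on both strands and was counted once. CCAAT boxes on opposite strands can share 2 end bases, and a box can share 1 base with a homology region.

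The windows of 5 members are printed 5′ to 3′ on the gene's strand, with matches in capitals (TTCAAA and ATTGG are the elements on the opposite strand). Cdk1 and Ube2c are shown because they were lower in kidney, stomach and salivary tissue. Bub1b is shown because its measured fall was the largest of the tested members in both stomach and salivary tissue. Its null salivary mean of 4.79 lay under the level of 5.37 required for testing, so the size of that fall is uncertain. Ccnb2 is shown because its boxes stand in regular spacing. Mad2l1 is shown because it was lower in stomach and salivary tissue while its window holds neither element. In the order printed, the windows lie at chr10:69352863-69353162 (minus strand), chr2:164769679-164769978 (plus strand), chr2:118597961-118598260 (plus strand), chr9:70421505-70421804 (minus strand) and chr6:66534971-66535270 (plus strand) of GRCm38.p6, sequence from RefSeq.
Cdk1: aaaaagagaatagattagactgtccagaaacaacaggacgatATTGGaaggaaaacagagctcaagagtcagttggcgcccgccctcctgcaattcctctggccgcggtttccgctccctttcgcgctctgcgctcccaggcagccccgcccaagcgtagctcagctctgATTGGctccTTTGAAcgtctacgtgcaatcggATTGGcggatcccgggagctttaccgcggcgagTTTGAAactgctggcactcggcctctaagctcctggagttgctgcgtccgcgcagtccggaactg
Ube2c: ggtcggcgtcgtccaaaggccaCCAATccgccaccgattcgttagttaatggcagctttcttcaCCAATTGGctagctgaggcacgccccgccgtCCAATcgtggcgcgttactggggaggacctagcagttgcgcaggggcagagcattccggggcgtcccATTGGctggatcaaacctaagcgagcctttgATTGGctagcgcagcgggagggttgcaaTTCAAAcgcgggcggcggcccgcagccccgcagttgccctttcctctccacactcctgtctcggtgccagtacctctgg
Bub1b: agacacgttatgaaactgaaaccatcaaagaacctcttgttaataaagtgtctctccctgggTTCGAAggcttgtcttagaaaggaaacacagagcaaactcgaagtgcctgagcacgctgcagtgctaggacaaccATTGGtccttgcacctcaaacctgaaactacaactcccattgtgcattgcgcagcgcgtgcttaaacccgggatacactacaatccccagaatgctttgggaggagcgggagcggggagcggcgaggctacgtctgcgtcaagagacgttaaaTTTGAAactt
Ccnb2: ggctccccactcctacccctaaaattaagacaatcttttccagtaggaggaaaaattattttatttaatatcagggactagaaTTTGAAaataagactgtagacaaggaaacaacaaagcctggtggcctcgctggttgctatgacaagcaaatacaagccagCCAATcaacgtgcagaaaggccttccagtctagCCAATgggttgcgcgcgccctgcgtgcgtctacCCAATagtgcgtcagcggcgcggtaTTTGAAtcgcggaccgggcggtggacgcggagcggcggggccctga
Mad2l1: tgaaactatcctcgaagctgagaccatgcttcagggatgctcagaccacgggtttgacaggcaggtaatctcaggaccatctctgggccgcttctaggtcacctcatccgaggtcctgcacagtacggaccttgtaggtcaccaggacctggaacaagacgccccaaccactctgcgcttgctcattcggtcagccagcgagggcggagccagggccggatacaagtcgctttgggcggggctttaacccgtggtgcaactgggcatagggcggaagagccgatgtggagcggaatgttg

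Counting from the start site as 0, Ccnb2 had CCAAT boxes beginning at -87, -54 and -21 and a homology region at 4, with another at -167. Cdk1 had boxes at -208, -80 and -48 and homology regions at -71 and -15. Ube2c had 6 boxes, of which those at -88 and -57 stood closest before its homology region at -29. Over all members, 28 of 34 homology regions and 41 of 54 CCAAT boxes began within the 120 bases before the start or after it, with median positions of -16 and -65. Neither element was in the windows of Pttg1, Mad2l1, Birc5, Nusap1 and Tacc3. A match of letters is a description of the window and says nothing of which protein is bound there.

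**Figure D1:**
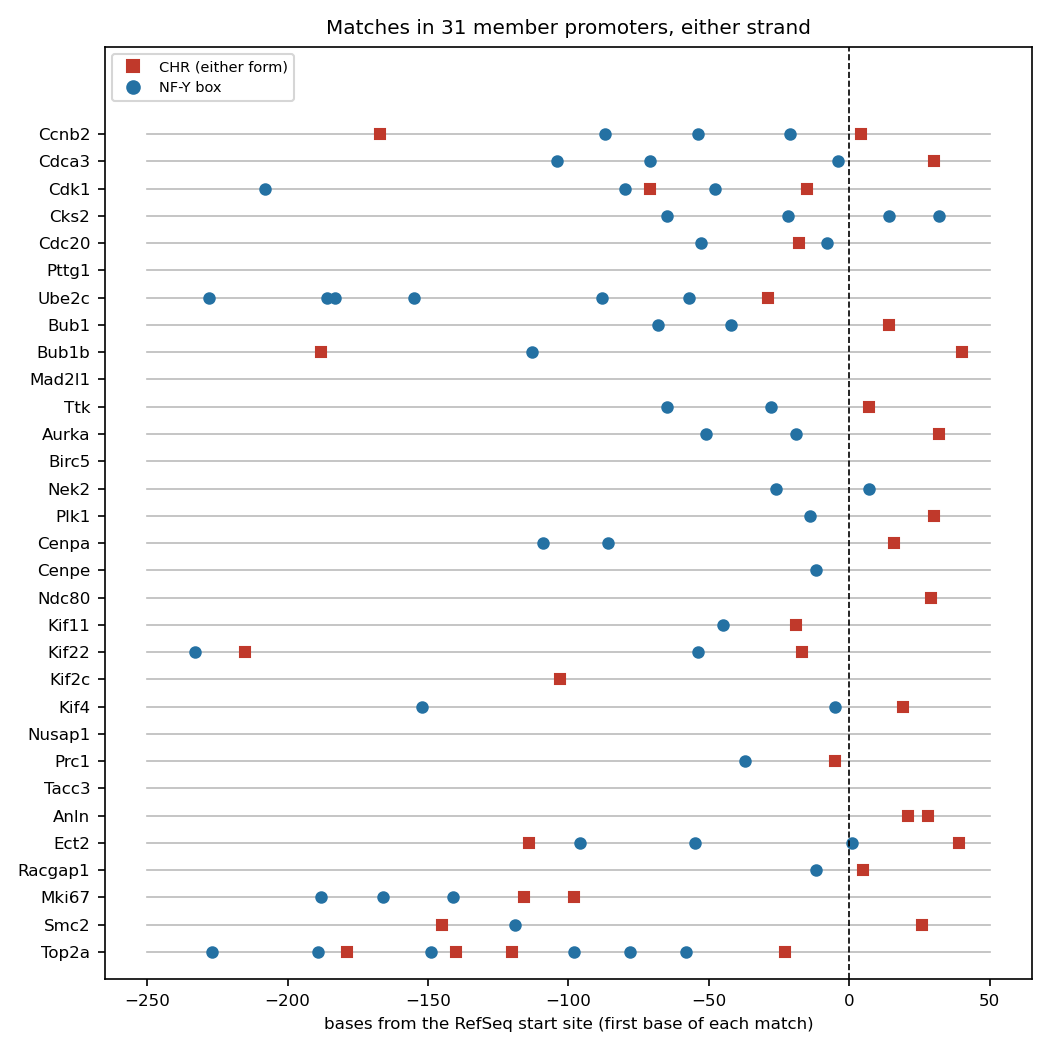
Positions of the homology region (CHR, red squares) and the NF-Y box (blue circles) in the windows of the 31 members with a RefSeq start site, 1 row per gene; the x axis is the distance in bases from the start site, which the dashed line marks. Of the 34 CHR matches 28 lie within 120 bases before the start or after it, and 5 rows hold no match.

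In wild-type tissues the members were lowest in brain and most often highest in liver. The median over the 38 genes, each represented by its brightest probe set, was 8.18 in liver, 7.86 in kidney and 7.74 in stomach, followed by 7.46 in salivary tissue and 6.41 in brain. Brain had the lowest mean for 38 of 38 genes, and for 33 of them each of its 3 arrays lay below all 12 arrays of the other tissues, which 12.3% of all genes did. The highest mean was in liver for 24 genes, in kidney for 10, in stomach for 2 (Anln and Ndc80) and in salivary tissue for 2 (Cdk1 and Cdc20). All 3 liver arrays lay above all other wild-type arrays for 15 of those genes, against 10.8% of all genes. Markers of blood-forming cells were high in liver too, since the erythroid list averaged 8.78 to 9.02 and the white blood cell list 9.06 to 9.63 on wild-type liver arrays, where in the other wild-type tissues they stayed at or below 5.94; their part in the member levels was not tested.

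Against the mean of the other tissues in a limma fit of the 15 wild-type arrays, liver was higher for 40 of 57 tested member probe sets (23.9% of all tested probe sets were) and lower for 0 (41.5%). Kidney was higher for 31 (27.1%), stomach for 13 (20.6%) and salivary tissue for 4 (27.1%), while brain was lower for 53 of 57 (34.5%). In brain Mki67, the Ki-67 antigen of cycling cells, differed by -2.28 ± 0.13 (SE; limma, Benjamini-Hochberg adjusted p = 4.27e-10). Bub1b also passed there, but it was among the 9 genes too dim in brain to reach the filter on low signals within that tissue, so the size of its difference is not given. The fit filtered on the mean over the 15 wild-type arrays, so such genes entered it through the other tissues. Bub1, Kif20a, Ndc80, Nek2, Plk1 and Ttk likewise had wild-type brain means under the level of 5.39 for testing within brain. The size of their brain differences is uncertain. Cks2, a small subunit that docks on CDK1, was higher in liver by 1.65 ± 0.08 (adjusted p = 5.76e-11), and Anln, the anillin of the contractile ring, higher in stomach by 1.58 ± 0.13 (adjusted p = 1.07e-07). The counts for kidney, stomach and salivary tissue were 20, 6 and 2 without kidney replicate 3, stomach replicate 2 and salivary replicate 2.

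Pttg1, which encodes securin, the inhibitor of the protease that cuts cohesin, read 11.50, 11.34 and 11.47 in liver, 11.59, 11.44 and 11.38 in kidney and 10.99, 10.75 and 11.11 in salivary tissue. Its stomach values were 10.55, 11.02 and 10.63, and those of brain were 10.30, 10.36 and 10.09. Liver and kidney overlapped, as did salivary tissue and stomach, and brain lay below all others. Kif22, a chromosome-bound kinesin, read 10.55, 10.89 and 10.31 in liver, 9.49, 9.94 and 9.72 in kidney and 9.36, 9.54 and 9.53 in salivary tissue, with 9.25, 9.39 and 9.45 in stomach and 8.10, 8.52 and 8.22 in brain. Only its liver and brain arrays stood clear of the rest. Mki67 read 10.18, 10.79 and 10.64 in liver, 9.62, 9.83 and 9.89 in stomach and 9.42, 9.76 and 9.70 in kidney, with 9.24, 9.83 and 9.26 in salivary tissue and 7.56, 7.53 and 7.62 in brain. Stomach, kidney and salivary tissue shared one range, with liver above it and brain below.

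Of the dimmest probe sets, that of Cdc25c, the phosphatase that switches CDK1 on, did not reach the filter on low signals in any tissue and was never tested. It read 4.84, 4.82 and 4.80 in kidney, 4.25, 4.49 and 4.07 in stomach and 4.02, 4.31 and 4.25 in salivary tissue, with 3.49, 4.04 and 3.93 in liver and 2.19, 3.75 and 3.90 in brain. Ndc80, the microtubule-binding subunit of the outer kinetochore, read 6.11, 6.31 and 6.32 in stomach, 5.68, 6.07 and 6.48 in kidney and 5.42, 6.05 and 5.96 in liver. Its salivary values were 4.58, 5.92 and 6.01, and brain stood at 4.27, 4.50 and 3.85. Kif20a, a kinesin of the central spindle, read 6.17, 5.47 and 5.90 in liver, 5.75, 6.05 and 5.91 in kidney and 5.84, 5.86 and 5.74 in stomach, with 5.79, 5.84 and 5.68 in salivary tissue and 4.50, 4.71 and 4.52 in brain. For Kif20a the 4 tissues other than brain overlapped; for Ndc80 kidney overlapped the other 3, stomach lay above liver and salivary tissue, and brain lay below all.

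**Figure D2:**
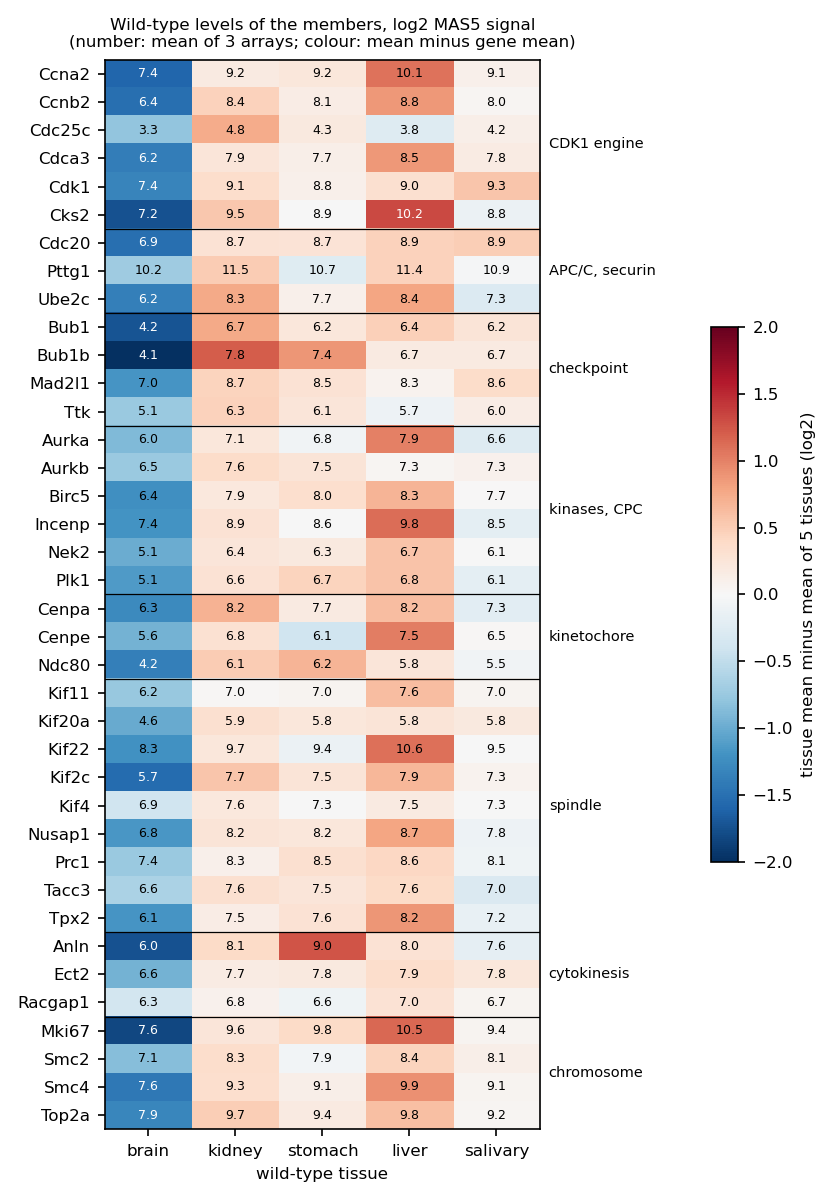
Mean log2 MAS5 signal of the 38 members (rows, grouped by role) in the 5 wild-type tissues (columns), n = 3 arrays each; numbers are means, and colours give the tissue mean minus the gene's mean over tissues. The brain column is the lowest in all 38 rows, and the liver column is the highest in 24.

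Null stomach stood below wild-type stomach for 31 of the 37 members tested there. Of 56 tested member probe sets 40 were lower in null stomach and 0 higher, where 12.2% of all 13576 tested probe sets were lower and 11.2% higher. The filter kept probe sets whose mean over the 6 arrays was at least 5.35. Of the 31 genes, Kif20a, Ndc80 and Ttk had null means under that level and reached it only through the wild-type arrays, so the size of their falls is uncertain; the null means of the other 28 genes lay above it. The median difference over the 38 genes was -0.78, against 0.08 over all genes of the array, and 36 of 38 had the lower mean in null stomach. All 3 null arrays lay below all 3 wild-type arrays for 34 genes, as they did for 15.8% of all genes. In bulk tissue, fewer dividing cells and less RNA per dividing cell cannot be told apart.

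Every tested gene of the CDK1 engine fell in null stomach, 5 of 5. Cdk1, the kinase itself, read 7.48, 8.06 and 7.70 on null arrays, against 8.69, 8.83 and 8.89 on wild-type arrays. The groups did not overlap, and Cdk1 fell by 1.06 ± 0.16 (SE; limma, adjusted p = 0.00392). Ccna2, the cyclin A that starts CDK1 activity, read 8.18, 8.64 and 8.15 in null stomach, against 9.06, 9.32 and 9.24 in wild-type stomach, a fall by 0.88 ± 0.15 (adjusted p = 0.00651). Cks2 read 8.01, 8.37 and 7.98 on null arrays and 8.75, 9.01 and 9.0 on wild-type arrays, without overlap, and fell by 0.80 ± 0.14 (adjusted p = 0.00704). Ccnb2, a cyclin B, and Cdca3, which triggers the destruction of the CDK1 inhibitor Wee1, fell by 0.72 and 0.50. Cdc25c, under the filter, read 2.18, 1.92 and 1.74 on null arrays, against 4.25, 4.49 and 4.07 on wild-type arrays, all of them dim.

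Of the anaphase-promoting complex and its substrate, the partners of the ligase fell, and securin, by its brightest probe set, did not. Ube2c, the ubiquitin-conjugating enzyme that works with the complex, read 6.10, 6.28 and 6.62 in null stomach, against 7.48, 7.77 and 7.78 in wild-type stomach, and fell by 1.34 ± 0.17 (adjusted p = 0.00206). Cdc20, the activator that the checkpoint blocks, read 8.27, 7.96 and 7.78 on null arrays and 8.52, 9.03 and 8.47 on wild-type arrays, and fell by 0.67 ± 0.18 (adjusted p = 0.0306). This call was not steady, as Cdc20 no longer passed in 7 of 19 alternative analyses. Pttg1 read 11.05, 10.95 and 10.88 in null stomach, against 10.55, 11.02 and 10.63 in wild-type stomach, where the groups overlap. Its difference of 0.23 ± 0.13 did not pass (adjusted p = 0.221) and became -0.36 with the Gapdh difference described below as a covariate. The dimmer Pttg1 probe sets had the lower means in null stomach. There they read 5.82, 5.15 and 5.48 against 6.14, 6.05 and 5.77 in wild-type stomach, and 5.88, 6.25 and 5.90 against 6.25, 6.34 and 6.34.

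All 4 listed checkpoint genes fell, but the calls of Bub1b, Bub1 and Ttk were not steady. Of 18 alternative analyses each, Bub1b no longer passed in 7 and Bub1 and Ttk in 10. Mad2l1 no longer passed in 3 of 19. Bub1b, the checkpoint kinase BubR1, showed the largest fall of the tested members and the widest spread: 5.50, 6.67 and 4.36 on null arrays, against 7.52, 7.26 and 7.55 on wild-type arrays. Null replicate 2 came nearest to the wild-type arrays and replicate 3 was the lowest, and the fall by 1.93 ± 0.47 passed (adjusted p = 0.0203). Mad2l1, the MAD2 protein that captures CDC20, read 6.78, 7.77 and 7.58 in null stomach, against 8.51, 8.52 and 8.50 in wild-type stomach, a fall by 1.13 ± 0.23 (adjusted p = 0.0108). Bub1, the kinase that brings the checkpoint to kinetochores, read 4.89, 5.77 and 5.41 on null arrays and 6.26, 6.21 and 6.12 on wild-type arrays (adjusted p = 0.0291). Ttk, the MPS1 kinase that starts checkpoint signalling, read 4.82, 5.64 and 5.47 on null arrays and 6.20, 6.10 and 5.93 on wild-type arrays (adjusted p = 0.0421). In all 4 genes null replicate 2 stood nearest to wild-type, and no arrays of the groups overlapped.

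Among the mitotic kinases and the chromosomal passenger complex, which corrects faulty attachments, 5 of 6 genes fell. Aurkb, the Aurora B kinase of that complex, read 6.44, 6.52 and 6.40 in null stomach, against 7.42, 7.51 and 7.55 in wild-type stomach. Its arrays lay close together in each group, and the fall by 1.04 ± 0.12 had the smallest adjusted p of the members in stomach (0.00158). Birc5, the survivin subunit, read 6.60, 7.02 and 6.76 on null arrays and 7.97, 7.94 and 8.03 on wild-type arrays, a fall by 1.19 ± 0.14 (adjusted p = 0.00164). Nek2, a centrosome kinase, read 5.38, 5.33 and 5.58 in null stomach, against 6.40, 6.40 and 6.17 in wild-type stomach (adjusted p = 0.00715). Plk1, the Polo kinase of mitotic entry and spindle assembly, read 5.62, 6.09 and 5.88 on null arrays and 6.64, 6.92 and 6.56 on wild-type arrays (adjusted p = 0.0115). None of these 4 genes had overlapping groups. Incenp, the scaffold of the complex, fell by 0.53, and Aurka, the centrosomal Aurora kinase, had overlapping groups and a difference of -0.53 that did not pass (adjusted p = 0.0883).

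At the centromere and kinetochore 2 of 3 genes fell. Ndc80 read 5.18, 5.68 and 5.11 in null stomach, against 6.11, 6.31 and 6.32 in wild-type stomach, and fell by 0.92 ± 0.19 (adjusted p = 0.0125). Its null mean of 5.32 was under the filter level of 5.35, which it reached only through the wild-type arrays. The size of its fall is therefore uncertain. Cenpa, the histone variant that marks centromeres, read 7.29, 7.50 and 7.25 on null arrays and 7.74, 7.68 and 7.79 on wild-type arrays, and fell by only 0.39 ± 0.12 (adjusted p = 0.0464). This call was not steady, as Cenpa no longer passed in 13 of 19 alternative analyses. Cenpe, the kinesin that carries chromosomes to the spindle equator, ran the other way with 6.67, 6.76 and 6.32 in null stomach, against 6.35, 6.17 and 5.86 in wild-type stomach. Its groups overlapped and the difference of 0.46 did not pass (adjusted p = 0.0971).

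Of the spindle motors and microtubule-associated proteins 7 of 9 fell. Tpx2, which activates Aurora A and nucleates spindle microtubules, read 6.47, 7.12 and 6.23 in null stomach, against 7.42, 7.55 and 7.80 in wild-type stomach, a fall by 0.98 ± 0.22 (adjusted p = 0.0163). Prc1, which bundles the microtubules of the central spindle, read 7.38, 7.78 and 7.53 on null arrays and 8.37, 8.67 and 8.47 on wild-type arrays, a fall by 0.94 ± 0.14 (adjusted p = 0.00415). Kif20a, dim in every tissue, read 4.61, 4.95 and 5.14 in null stomach, under the filter level on average, against 5.84, 5.86 and 5.74 in wild-type stomach (adjusted p = 0.0135). These 3 genes had no overlap between groups. Kif11, the motor that pushes spindle poles apart, read 6.36, 6.44 and 6.13 on null arrays and 6.95, 7.15 and 6.95 on wild-type arrays (adjusted p = 0.0105). Tacc3, a stabiliser of the fibres that hold kinetochores, read 6.71, 7.07 and 6.47 in null stomach, against 7.50, 7.57 and 7.41 in wild-type stomach (adjusted p = 0.0151), again without overlap. Kif2c, a microtubule depolymeriser at centromeres, and Kif22 fell by 0.68 and 0.39. Kif4, a chromokinesin, and Nusap1, which links microtubules near chromosomes, had differences of -0.48 and -0.50 that did not pass.

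In cytokinesis 2 of 3 genes fell and in chromosome structure 4 of 4. Anln read 8.21, 8.44 and 8.61 in null stomach, against 9.14, 8.83 and 9.04 in wild-type stomach (adjusted p = 0.0192). Ect2, the exchange factor that activates RhoA at the cleavage furrow, read 7.0, 7.39 and 7.16 on null arrays and 8.08, 7.72 and 7.51 on wild-type arrays (adjusted p = 0.0393) with little between the nearest arrays of the groups. Ect2 no longer passed in 10 of 19 alternative analyses. Racgap1, the partner of Ect2 in the central spindle, had a difference of -0.39 that did not pass (adjusted p = 0.0638). Mki67 read 8.29, 8.75 and 8.21 in null stomach, against 9.62, 9.83 and 9.89 in wild-type stomach, a fall by 1.36 ± 0.16 (adjusted p = 0.0016) and a wild-type to null ratio of 2.57. Smc2, a condensin subunit, read 6.59, 6.97 and 7.20 on null arrays and 7.91, 8.0 and 7.91 on wild-type arrays, a fall by 1.02 ± 0.16 (adjusted p = 0.00491). Its partner Smc4 read 8.62, 8.78 and 8.77 in null stomach, against 9.03, 9.17 and 9.20 in wild-type stomach, and fell by 0.41 ± 0.11 (adjusted p = 0.026). Smc4 no longer passed in 7 of 19 alternative analyses. The dimmer Smc4 probe sets disagreed, each without overlap. The dimmest stood higher in null stomach, at 6.49, 6.75 and 6.63 against 6.44, 6.31 and 6.35. The other stood lower, at 8.02, 7.81 and 8.07 against 8.34, 8.59 and 8.10. Top2a, the topoisomerase that disentangles sister chromatids, read 8.36, 8.80 and 8.47 on null arrays and 9.25, 9.40 and 9.49 on wild-type arrays (adjusted p = 0.00534). Null replicate 2 was the highest null array for Mki67, Smc4 and Top2a, and below wild-type in each.

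Other measures separated the stomach groups as well. The Gapdh control probe sets' 3′ minus 5′ difference, which grows as RNA breaks down, was 3.97, 3.82 and 3.53 on null arrays, against 2.40, 3.11 and 2.28 on wild-type arrays. With it as a covariate 0 member probe sets passed in limma and 2 probe sets of the whole array were lower, while the median member difference was -0.94. The groups did not overlap in the Gapdh difference, so it cannot be told apart from genotype and that median is uncertain. Alb, the liver's serum albumin, read 6.81, 6.19 and 7.06 in null stomach, against 5.93, 10.25 and 11.90 in wild-type stomach; wild-type replicate 1, with the low value, had a member median of 7.73 like the 7.75 and 7.79 of the others, and null arrays had 6.76, 7.10 and 6.95. With Alb as a covariate 9 member probe sets passed, and with wild-type replicate 1 alone none did (10 lower of the whole array) at a median difference of -0.76. Milk protein transcripts, 4 of 5 tested, were all lower in null stomach, where the list averaged 5.09 to 6.28, against 7.79 to 8.36 in wild-type stomach. Of the stomach's own markers 4 fell and 2 rose, the pump subunits Atp4a and Atp4b of parietal cells by far the most, and of 5 tested squamous epithelium markers 4 rose and 1 fell. Muscle genes fell in part, 2 of 5 tested smooth muscle genes and 2 of 3 tested skeletal muscle genes. The part of milk content and cell mix in the member differences was not tested. Leaving out wild-type replicate 2, null replicate 1 or null replicate 3 left 24, 26 and 26 member probe sets.

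**Figure D3:**
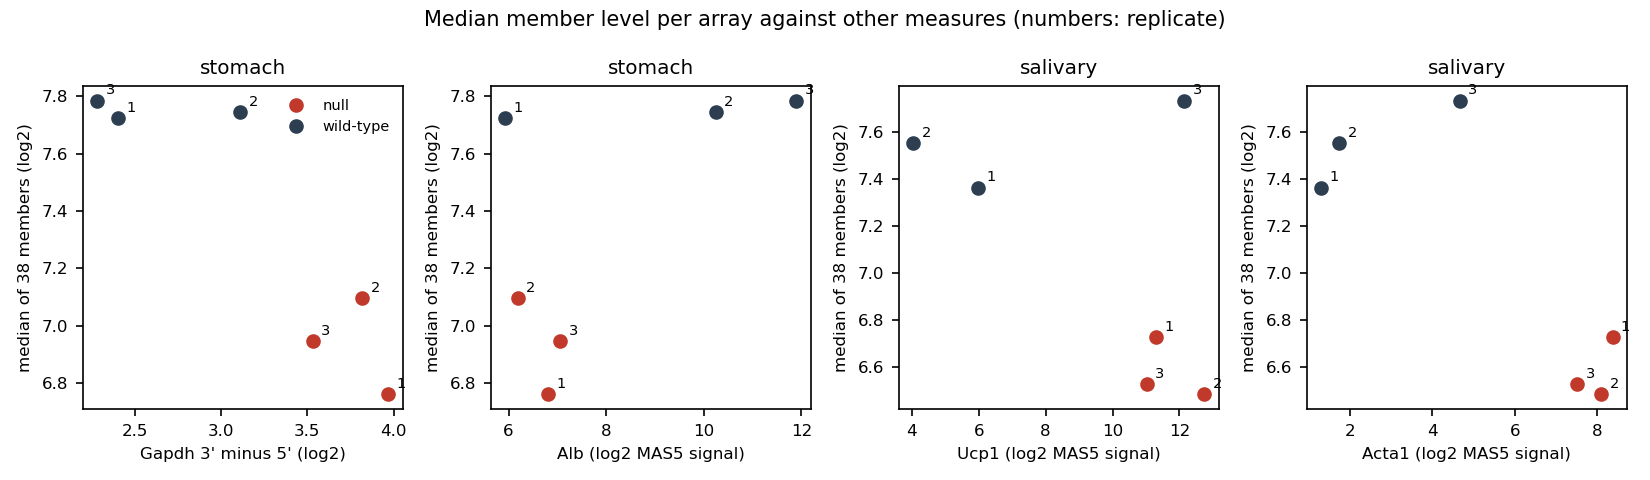
Median log2 signal of the 38 members on each array (y axes) against the Gapdh 3′ minus 5′ difference and Alb in stomach, and against Ucp1 and Acta1 in salivary tissue (x axes, log2); red points are null arrays, dark points wild-type arrays, and numbers are replicates. Wild-type stomach replicate 1 at an Alb of 5.93 and wild-type salivary replicate 3 at a Ucp1 of 12.14 lie with the other wild-type arrays in the member median.

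Salivary tissue of null mice showed the second broad difference. There 26 of 50 tested member probe sets were lower and 0 higher, where 4.72% of all 13576 tested probe sets were lower and 3.5% higher; by gene, 22 of 35 tested were lower. Of the 22, Bub1b and Ttk had null means of 4.79 and 4.82, under the filter level of 5.37, and reached it only through the wild-type arrays. The median difference over the 38 genes was -0.86, against 0.06 over all genes, and all 38 had the lower mean in null tissue. All null arrays lay below all wild-type arrays for 29 genes, as they did for 10.9% of all genes.

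Of the CDK1 engine 4 of 5 tested genes fell there. Cdk1 read 7.78, 7.53 and 7.81 on null arrays, against 9.11, 9.32 and 9.34 on wild-type arrays, and fell by 1.55 ± 0.15 (SE; adjusted p = 0.000804), the smallest adjusted p of the members in this tissue. Ccna2 read 8.40, 8.0 and 7.86 in null tissue, against 9.02, 9.01 and 9.21 in wild-type tissue (adjusted p = 0.00894). Cks2 and Ccnb2 fell by 0.99 and 0.63, and Cdca3 had a difference of -0.72 that did not pass (adjusted p = 0.0543). Cdc20 read 7.82, 7.40 and 8.14 on null arrays and 8.95, 8.82 and 8.91 on wild-type arrays, without overlap, and fell by 1.11 ± 0.19 (adjusted p = 0.00952). Ube2c fell by 0.92, and Pttg1 differed by -0.09 with overlapping groups (adjusted p = 0.789).

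All 3 tested checkpoint genes fell in salivary tissue, although Ttk no longer passed in 6 of 15 alternatives. Bub1b read 4.05, 4.88 and 5.43 in null tissue, against 6.90, 6.73 and 6.57 in wild-type tissue, with more spread among null arrays than among wild-type arrays, and fell by 1.95 ± 0.34 (adjusted p = 0.0103). Mad2l1 read 7.30, 7.14 and 7.12 on null arrays and 8.14, 8.77 and 8.84 on wild-type arrays (adjusted p = 0.00455). Ttk read 4.91, 4.81 and 4.73 in null tissue, against 5.72, 6.17 and 6.06 in wild-type tissue (adjusted p = 0.026). The null side of Bub1b and Ttk was dim, so the size of these falls is uncertain. Bub1, under the filter here, read 5.26, 4.35 and 3.92 on null arrays and 5.92, 6.48 and 6.26 on wild-type arrays. No groups of these 4 genes overlapped. Of the kinases and the passenger complex 3 of 6 fell: Birc5, Aurkb and Incenp. Birc5 read 6.54, 6.43 and 6.60 on null arrays, against 7.60, 7.60 and 7.75 on wild-type arrays, and fell by 1.13 ± 0.15 (adjusted p = 0.0034). Aurka, Nek2 and Plk1 overlapped between groups and did not pass, and neither did Cenpa (-0.02) and Cenpe (-0.59).

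Of the spindle proteins 5 of 9 fell in salivary tissue, of the cytokinesis proteins 2 of 3 and of the chromosome proteins 3 of 4. Kif2c read 5.87, 5.90 and 5.80 in null tissue, against 6.89, 7.18 and 7.72 in wild-type tissue, and fell by 1.41 ± 0.22 (adjusted p = 0.0071). Kif22 read 8.68, 8.05 and 8.46 on null arrays and 9.36, 9.54 and 9.53 on wild-type arrays (adjusted p = 0.00733). Ect2 read 6.72, 5.86 and 6.37 in null tissue, against 7.70, 7.90 and 7.81 in wild-type tissue, and fell by 1.49 ± 0.22 (adjusted p = 0.00538). In these 3 genes every null array lay clearly below every wild-type array. Smc2 read 6.50, 6.76 and 6.53 on null arrays, against 7.91, 8.16 and 8.28 on wild-type arrays, and fell by 1.52 ± 0.16 (adjusted p = 0.00144). Top2a read 8.37, 7.73 and 8.04 in null tissue, against 9.01, 9.40 and 9.31 in wild-type tissue (adjusted p = 0.00686). Mki67 fell by 0.83, and Smc4 did not pass at -0.39. Kif11, Nusap1, Tpx2 and Anln fell by 0.83, 0.79, 0.78 and 0.92.

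Markers of neighbouring tissue differed between the salivary groups. Ucp1 of brown fat read 11.31, 12.75 and 11.02 on null arrays, against 5.99, 4.04 and 12.14 on wild-type arrays, and the brown fat list averaged 9.91 to 11.25 on null arrays, against 5.99 to 10.45 on wild-type arrays. Wild-type replicate 3, with a Ucp1 level among those of the null arrays, had a member median of 7.74; the other wild-type arrays had 7.37 and 7.56, and the null arrays 6.73, 6.49 and 6.53. Acta1 of skeletal muscle read 8.37, 8.10 and 7.52 on null arrays, against 1.31, 1.74 and 4.66 on wild-type arrays, and the list of 6 muscle genes averaged 4.96 to 6.47 on null arrays, against 2.57 to 3.48 on wild-type arrays. None of the 5 brown fat genes passed the test, nor did the 1 muscle gene above the filter. With Ucp1 as a covariate 8 member probe sets passed at a median difference of -0.92, and with Acta1 none did (0 lower of the whole array) at -1.23. The groups did not overlap in Acta1, so it cannot be told apart from genotype and the median of -1.23 is uncertain. With wild-type replicate 3 as the sole wild-type array none passed either (8 lower of the whole array), at a median difference of -0.95. The salivary list itself averaged 9.03 to 10.05 on null arrays and 9.90 to 10.43 on wild-type arrays, with Aqp5, the water channel of acini, at 8.13, 8.54 and 8.59 on null arrays, against 9.15, 9.50 and 9.08 on wild-type arrays. The part of brown fat and muscle in the member differences was not tested beyond these values. Leaving out wild-type replicate 2, wild-type replicate 3 or null replicate 3 left 13, 16 and 17 member probe sets.

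**Figure D4:**
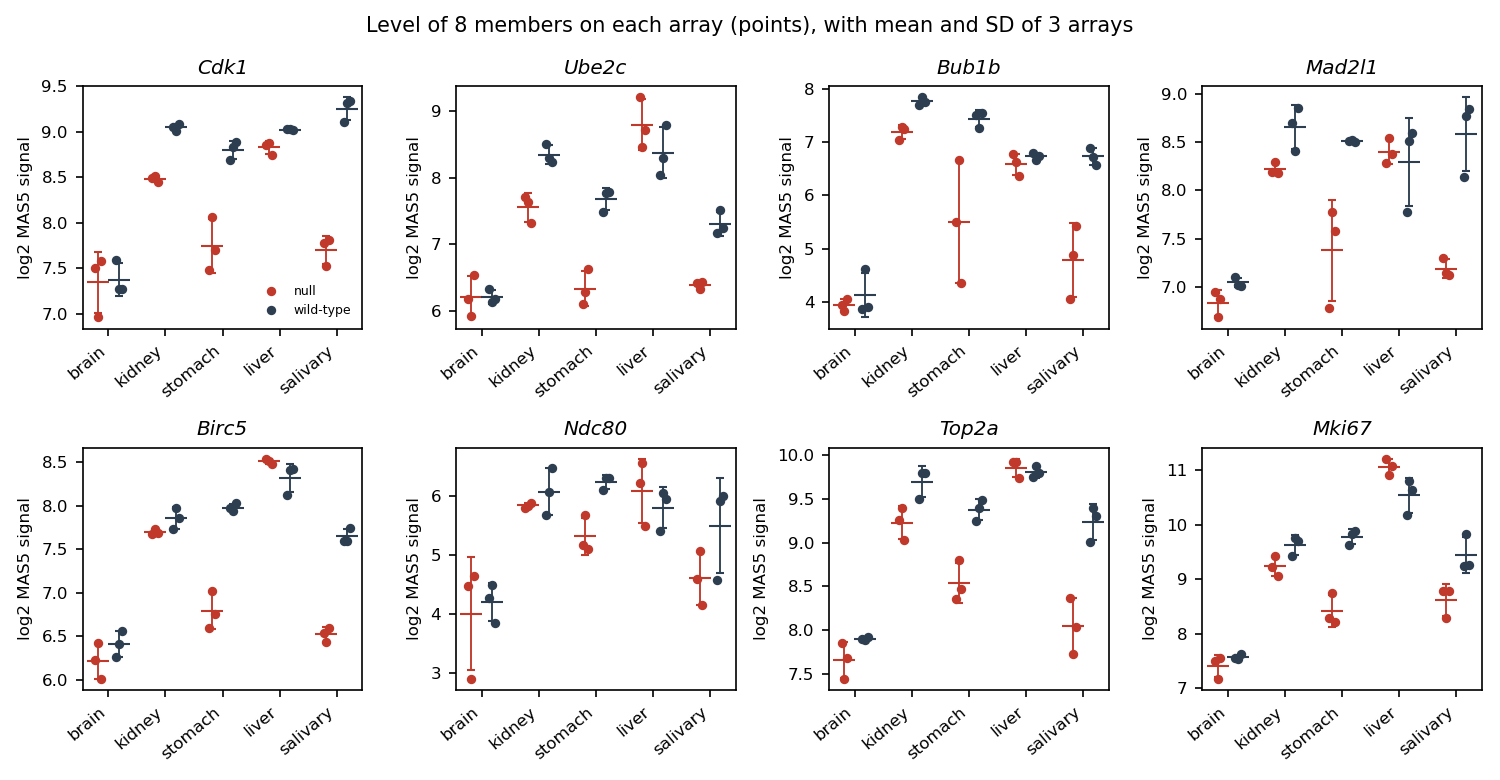
Log2 MAS5 signal of 8 members on each array (points) in the 5 tissues, with the mean and SD of 3 arrays; red is null and dark is wild-type, and y axes do not start at 0. In stomach and salivary tissue the null arrays of Cdk1, Ube2c, Bub1b, Mad2l1, Birc5, Top2a and Mki67 lie below all wild-type arrays, and in liver the groups lie close to each other.

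Stomach and salivary tissue had 21 genes lower in common, which are 21 of the 31 genes of stomach and 21 of the 22 genes of salivary tissue. The remaining salivary gene was Nusap1. By their brightest probe sets, Pttg1, Racgap1, Cdc25c, Aurka, Cenpe and Kif4 were lower in no tissue. Most genes are read by 1 probe set, 20 of 38, and where others were tested they gave the same sign as the main one in 14 of 19 cases in stomach and in 14 of 15 in salivary tissue.

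**Figure D5:**
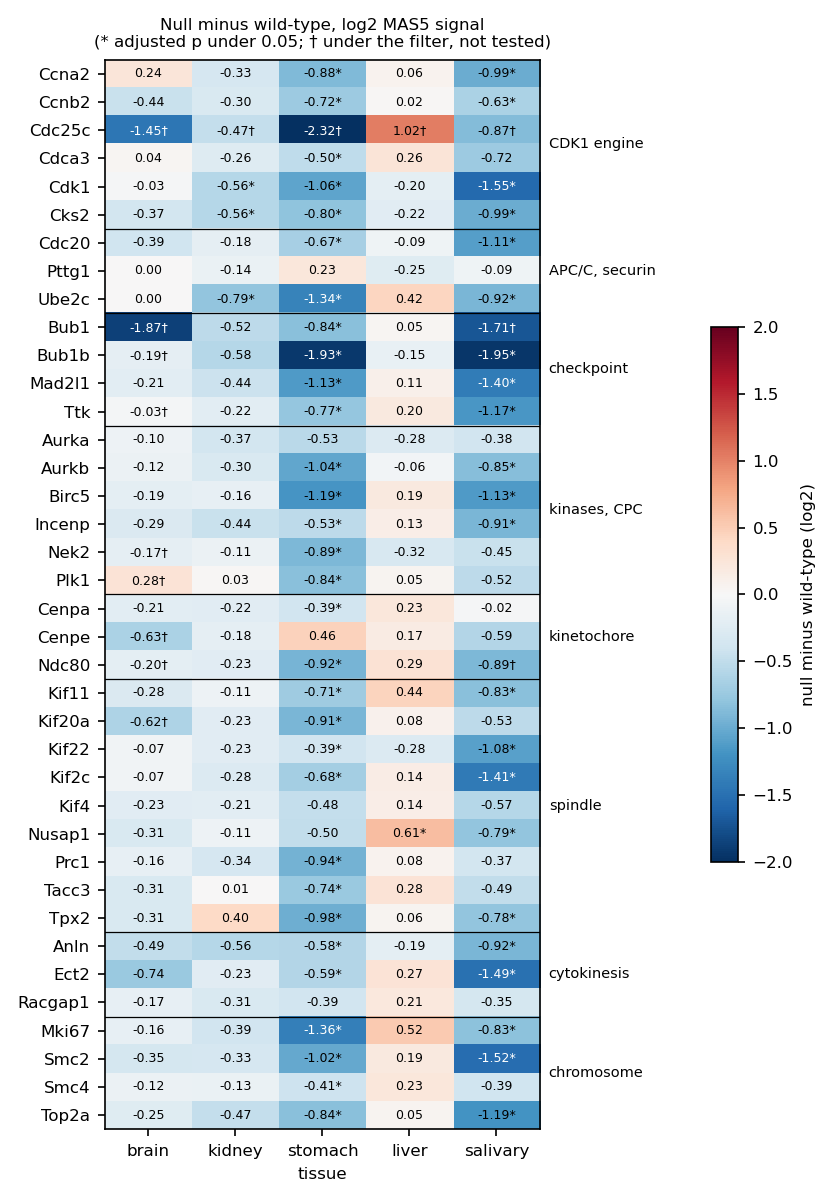
Null minus wild-type log2 signal of the 38 members (rows, by role) in the 5 tissues (columns), n = 3 arrays each; an asterisk marks an adjusted p under 0.05 and a dagger a gene under the signal filter, which was not tested. Calls fill the stomach column (31) and the salivary column (22), with 3 in kidney, 1 in liver and 0 in brain.

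Kidney gave few calls, all of them lower. In null kidney 4 of 57 tested member probe sets were lower and 0 higher, where 0.368% of all 13577 tested probe sets were lower and 0.412% higher, and these belong to 3 genes. Ube2c read 7.71, 7.64 and 7.31 in null kidney, against 8.50, 8.29 and 8.23 in wild-type kidney, and fell by 0.79 ± 0.14 (SE; limma, adjusted p = 0.0392). Cdk1 read 8.49, 8.52 and 8.45 on null arrays and 9.05, 9.01 and 9.09 on wild-type arrays, and fell by 0.56 ± 0.10 (adjusted p = 0.0349). Cks2 read 8.86, 9.03 and 8.80 in null kidney, against 9.41, 9.46 and 9.51 in wild-type kidney, and fell by 0.56 ± 0.10 (adjusted p = 0.0403). The gap between groups was wider than the range within either for all 3 genes. Over the 38 genes the median difference was -0.27, against 0.04 over all genes, 35 had the lower mean in null kidney, and for 17 the null arrays lay below all wild-type arrays, as for 7.74% of all genes. Bub1b (-0.58, adjusted p = 0.0661), Anln (-0.56) and Bub1 (-0.52) were among those that did not overlap and did not pass. The count of 4 was 0 without null replicate 1, null replicate 3 or any 1 of the 3 wild-type arrays, and 1 with the Gapdh difference as a covariate.

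Liver gave 1 call, a higher one that was not steady. No member probe set of 59 tested was lower in null liver and 1 was higher, where 3.46% of all 13577 tested probe sets were lower and 3.47% higher, and 4 member probe sets had an unadjusted p under 0.05. Nusap1 read 9.50, 9.28 and 9.20 in null liver, against 8.69, 8.84 and 8.62 in wild-type liver, without overlap, a rise of 0.61 ± 0.15 (SE; limma, adjusted p = 0.039). It no longer passed in 11 of 17 alternatives, among them 5 of the 6 that leave out 1 array. Mki67 read 11.20, 10.90 and 11.08 on null arrays, against 10.18, 10.79 and 10.64 on wild-type arrays, also without overlap, but its difference of 0.52 did not pass (adjusted p = 0.0992). Kif11 read 8.22, 7.67 and 8.19 in null liver, against 7.45, 7.68 and 7.63 in wild-type liver, where null replicate 2 lay inside the wild-type range, and did not pass (adjusted p = 0.193). The median difference over the 38 genes was 0.12, against 0.02 over all genes, and 28 had the higher mean in null liver. That median was 0.05 without wild-type replicate 1 and 0.24 with the Gapdh difference as a covariate. Null arrays lay below all wild-type arrays for 5 genes (10.9% of all genes did) and above all of them for 7. No share over all genes is given here for the latter count, so it cannot be judged against the array.

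Brain gave no call. Of 41 tested member probe sets 0 passed in either direction, as did 0 of all 13577 (0%), while 7 had an unadjusted p under 0.05 and the smallest adjusted p of the members was 0.382. That was Ect2, which read 5.77, 6.34 and 5.56 in null brain, against 6.41, 6.50 and 6.99 in wild-type brain, at a difference of -0.74 ± 0.24 (SE). Cks2 read 6.89, 6.87 and 6.71 on null arrays and 7.26, 7.09 and 7.22 on wild-type arrays, and Smc2 read 6.85, 6.78 and 6.72 on null arrays and 7.13, 6.95 and 7.33 on wild-type arrays. In these 3 genes the groups did not overlap, and none passed (adjusted p = 0.4 for Cks2 and 0.436 for Smc2). Over the 38 genes the median difference was -0.20, against 0.03 over all genes, and 33 had the lower mean in null brain. For 12 genes the null arrays lay below all wild-type arrays, as for 5.62% of all genes, and 9 genes were under the filter in this tissue. Null replicate 1 carried skeletal muscle transcripts, with Acta1 at 8.92 and a muscle list mean of 6.84. On the other brain arrays the list stayed at or below 3.94. The part of muscle in the member differences was not tested. The member median difference was -0.27 without null replicate 1 and -0.14 without null replicate 2.

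Whether the null effect differed between tissues was tested in a limma fit of all 30 arrays, which pools the spread of the 10 groups and treats the arrays as independent. A probe set entered this fit if it reached the filter in any tissue, so some results rest in part on values under it. The pattern of Xist by replicate number was the same in all tissues, so the 30 arrays may come from as few as 3 animals a genotype, which the labels do not say; p-values of the average effect would then be too small. On average over the 5 tissues 39 of 59 member probe sets were lower in null arrays and 0 higher, where 11.1% of 16690 tested probe sets were lower and 11.4% higher, and these cover 30 of 37 genes. Cks2 had an average difference of -0.59 ± 0.05 (SE; adjusted p = 4.01e-08), Cdk1 one of -0.68 ± 0.06 (adjusted p = 6.12e-08) and Birc5 one of -0.49 ± 0.06 (adjusted p = 7.76e-07). The F test of unequal effects passed for 26 member probe sets and 23 genes, where 15.3% of all tested probe sets passed. The average count was 25 member probe sets without the stomach arrays, and likewise 25 without the salivary arrays.

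Set against the mean of the other 4 tissues, the effect in liver was more positive for 20 member probe sets (3.96% of all), that in salivary tissue more negative for 19 (3.47%) and that in stomach more negative for 9 (5.22%). The mean set against liver takes in the falls in stomach and salivary tissue, so a more positive effect need not be a rise in liver. Mki67 differed in liver by 1.21 (adjusted p = 0.000404) and in stomach by -1.15 (adjusted p = 0.00052). Ube2c differed in liver by 1.19 (adjusted p = 0.00121) and in stomach by -1.02 (adjusted p = 0.00358). Kif2c, Smc2 and Cdk1 differed in salivary tissue by -1.19, -1.14 and -1.09 (adjusted p = 0.000859, 0.000276 and 0.000122). Brain effects were more positive for 2 genes, Cdk1 and Ccna2, at 0.81 and 0.78 (0.359% of all probe sets), and kidney effects for none (0.0599%), with none more negative in kidney either (0.0539%). With the Gapdh difference as a covariate the stomach count was 1, and without wild-type replicate 2, wild-type replicate 3, null replicate 1 or null replicate 2 it was 4, 5, 4 and 14.

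Genes that copy DNA before mitosis were also lower in stomach and salivary tissue. As for the members, 12.2% of tested probe sets were lower and 11.2% higher in null stomach, 4.72% and 3.5% in null salivary tissue, and 3.46% and 3.47% in null liver. Of 27 measured replication genes 19 of 26 tested fell in null stomach, with a median of -0.84, and 22 of 25 in null salivary tissue, with a median of -1.37; none passed in kidney, liver or brain. Rrm2, the ribonucleotide reductase subunit made in S phase, read 7.10, 7.63 and 7.17 in null salivary tissue, against 9.89, 10.18 and 9.96 in wild-type tissue, a fall by 2.71 ± 0.17 (SE; adjusted p = 0.000168). Mcm6 of the replicative helicase, Tk1, the thymidine kinase, and Pcna, the polymerase clamp, fell by 2.22, 2.07 and 1.85. In null stomach Tk1 read 5.14, 7.09 and 6.06, against 8.12, 8.19 and 8.41 in wild-type stomach, and the helicase genes Mcm5 and Mcm3 and the loader Cdc6 fell by 2.05, 1.51 and 1.49.

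Among further mitotic genes the kinetochore list, 26 genes measured, had 10 of 22 tested genes lower in null stomach and 6 of 21 in null salivary tissue. Sgo1, the protector of centromeric cohesin, fell by 1.34 in stomach, where Cenpn, Nuf2 and Trip13 fell by 1.05, 0.96 and 0.95. In salivary tissue Nuf2, the partner of Ndc80, fell by 1.77, and Zwilch, Trip13 and Cenpk by 1.67, 1.29 and 1.24. Of 24 measured spindle genes 10 of 18 tested were lower in stomach, led by Haus4 (-1.40), Plk4 (-1.14), Cep55 (-1.09) and Haus1 (-1.06), and 6 of 20 in salivary tissue, led by Kpna2 (-1.81), Spag5 (-1.36), Cep55 (-1.18) and Plk4 (-1.16). Of 15 tested condensin and cohesin genes 6 were lower and 2 higher in null stomach, where 2 of 15 is near the 11.2% of all probe sets. The condensin genes Ncapg2 and Ncapd2 and the cohesin protector Cdca5 fell by 1.33, 0.93 and 0.97 there, while the cohesin loader Mau2 rose by 0.65. In salivary tissue 5 of 15 were lower, among them Ncapg2 (-1.71), Ncapg (-1.54), Ncaph (-1.20) and Cdca5 (-1.02). In liver Ncapd2 was higher by 0.59. Subunits of the anaphase-promoting complex itself gave 0 calls among 11 tested of 13 measured in stomach. Of 11 tested in salivary tissue Cdc23 fell by 0.79 and Anapc7 rose by 0.54.

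Regulators of the cycle fell in part. Of 17 measured mitotic kinases and regulators 13 were tested; 4 were lower and 2 higher in null stomach, the 2 again near the background share, and 3 were lower in null salivary tissue. The kinases Pbk and Melk fell in both, by 1.21 and 0.93 in stomach and by 1.35 and 1.78 in salivary tissue, where Cks1b fell by 0.97. Ensa, an inhibitor of the phosphatase PP2A, and Cdc25b, an activator of CDK1, fell by 0.58 and 0.54 in stomach, while Cdc25b rose by 0.79 in null liver (adjusted p = 0.0222). Of 12 measured G1 cyclins, CDKs and E2F factors 8 of 9 tested were lower in null stomach and 4 of 11 in null salivary tissue. Ccnd1, cyclin D1, read 7.99, 8.18 and 8.10 in null salivary tissue, against 9.40, 9.46 and 9.38 in wild-type tissue, and 7.17, 7.89 and 7.29 in null stomach, against 8.24, 8.78 and 8.60 in wild-type stomach. E2f8, a repressor of the E2F family, fell by 1.69 in stomach and 1.25 in salivary tissue and rose by 0.71 in liver (adjusted p = 0.0209). Ccne2 and E2f1 fell by 1.06 and 0.93 in stomach, and Tfdp1 and Ccnd2 by 1.06 and 0.97 in salivary tissue.

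Of 14 measured inhibitors of the cycle, 4 of 13 tested were lower and 0 higher in null stomach. Over all tested probe sets there, 12.2% were lower and 11.2% higher. Of 12 tested in each other tissue named, 2 were lower and 2 higher in null salivary tissue (4.72% and 3.5% of all). In null liver 1 was lower and 3 were higher (3.46% and 3.47% of all). In null kidney 1 was lower, where 0.368% of all probe sets were. Cdkn1a, the CDK inhibitor p21, read 9.18, 8.72 and 8.71 in null salivary tissue, against 5.82, 6.30 and 7.54 in wild-type tissue, a rise of 2.32 ± 0.37 (SE; adjusted p = 0.00736). In liver it read 9.89, 8.57 and 9.70 on null arrays, against 7.14, 6.75 and 7.13 on wild-type arrays, a rise of 2.38 ± 0.31 (adjusted p = 0.00439). No array of one group reached the other in either tissue. The members stood lower in null salivary tissue and near their wild-type level in null liver. Whether Cdkn1a and the members are related was not tested. The antiproliferative gene Btg2 also rose in both, by 0.82 and 1.72, and its relative Btg1 by 0.91 in liver. Cdkn1c, the CDK inhibitor p57, fell by 0.87 in salivary tissue and 1.02 in liver. Rbl1, the pocket protein p107, fell by 0.72 in kidney, 0.95 in stomach and 1.68 in salivary tissue (adjusted p = 0.0289, 0.0117 and 0.00173). In stomach the inhibitors Cdkn2d, Cdkn2c and Cdkn2b fell by 0.89, 0.73 and 0.60.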

How the data were processed

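Total RNA of 5 tissues, extracted with Trizol per the labels, was measured on 30 arrays (2 genotypes, 3 arrays per group). The authors deposited log2 signals made with MAS 5, per the submitters' processing notes. The 2% trimmed means of the unlogged values were 150.0 on all arrays, so arrays had been scaled to a common mean; the sources used here name no other upstream step. Every deposited column matched a sample. Values were used as given, without further normalization, for 22626 probe sets after 64 controls; 20380 carried 1 gene symbol, 691 several and 1555 none. Array medians were 5.80 to 6.08, and the highest correlation between 2 arrays was 0.970.

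Each tissue was fitted with limma 3.58.1 in R 4.3.3 (empirical Bayes with a mean-variance trend) on probe sets at or above the 40th percentile of the 6-array mean, with Benjamini-Hochberg adjustment over all of them and a threshold of 0.05. A fit of the 10 groups tested the average null effect and its differences between tissues, and a fit of 15 wild-type arrays compared tissues. The former took probe sets that reached the filter in any tissue, the latter those that reached it over the 15 arrays. A gene is given by its probe set of highest mean over the 30 arrays. Brightness differs between probes, so levels are compared within a gene only. Values of every array are given for the 3 highest and 3 lowest members in wild-type tissues, for up to 12 called members of largest difference per tissue (the 3 of smallest p where fewer than 5 were called), and for up to 2 further members per role in stomach; of other lists, up to 4 called genes of largest difference per tissue are named. Members and lists were chosen with earlier results of these data known, as were the gene groups and markers taken over from that work. The fits were tested on simulated data. Alternatives covered normalization, the filter, a floor on low values, the variance model, blocks, covariates, thresholds and each array left out; the alternatives on Ucp1, Acta1, the high-Alb and low-Ucp1 arrays and a random block were chosen after seeing the data. Promoter windows came from RefSeq tables of GRCm38.p6. Figures were drawn with matplotlib 3.10.9 in Python 3.11.15.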

Additional observations from a re-analysis of the deposited data

Results flagged for a closer look

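The null effect differed between the tissues for 26 member probe sets and 23 genes, by the F test of a limma fit over 30 arrays. Of the CDK1 engine this held for Cdk1 (adjusted p = 4.64e-05), Ccna2 (0.00048), Cdca3 (0.00682) and Cks2 (0.00902), and of the anaphase-promoting complex's partners for Ube2c (0.000391) and Cdc20 (0.0335). All 4 checkpoint genes were among them, Mad2l1 (0.00303), Ttk (0.0111), Bub1b (0.0114) and Bub1 (0.0216). Bub1 was under the filter in brain and salivary tissue, and Bub1b and Ttk were under it in brain. The F tests of these genes therefore rest in part on dim values. The passenger complex gave Birc5, with the smallest adjusted p of the members (9.98e-06), Aurkb (0.0027) and Incenp (0.0216).

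Of the spindle proteins the effect differed for Kif2c (adjusted p = 0.00127), Kif11 (0.00362), Nusap1 (0.00391), Tpx2 (0.0131), Prc1 (0.0325) and Tacc3 (0.0337). Ect2 (0.00688) stood alone among the cytokinesis genes. The chromosome proteins gave Smc2 (9.5e-05), Mki67 (0.000172) and Top2a (0.00109). Set against the mean of the other 4 tissues, liver was more positive for 19 genes, salivary tissue more negative for 16 and stomach more negative for 7. These contrasts depend on each other, and the mean set against liver takes in the falls in stomach and salivary tissue. Within liver 1 gene passed, at a median difference of 0.12 over the 38 genes.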

How the results depend on the processing

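No member was lower in null brain or liver under any of the 19 alternatives run for each tissue. The kidney count of 4 member probe sets was 0 with no filter, with no mean-variance trend and at an adjusted p under 0.01, 1 in the fit over 30 arrays and 1 with the Gapdh difference as a covariate, and 0 to 4 with each array left out; fewer calls stand over the whole array too, 8 lower probe sets in the fit over 30 arrays and 18 with the covariate, against 50. The stomach count of 40 was 0 with the Gapdh difference as a covariate, 9 with Alb as a covariate, 0 without wild-type arrays 2 and 3, 13 at an adjusted p under 0.01, and 24 to 41 with each array left out. The salivary count of 26 was 8 with Ucp1 and 0 with Acta1 as a covariate, 0 without wild-type arrays 1 and 2, 14 at an adjusted p under 0.01, and 13 to 23 with each array left out. Over the whole array 2 and 310 probe sets were lower in stomach with the Gapdh and Alb covariates, against 1659. In salivary tissue 164 and 0 were lower with Ucp1 and Acta1, against 641. The average count of 39 was 25 without the stomach arrays, 25 without the salivary arrays, and 36 to 42 with each array left out. The F count of 26 was 22 to 30. The stomach effect below the other tissues, 9, was 1 with the Gapdh covariate and 4 to 14 with each array left out. Wild-type counts for kidney, stomach, liver and salivary tissue ran at 20 to 34, 6 to 16, 36 to 42 and 2 to 6 with each array left out.

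With the replicate number as a block the salivary count was 16 and the kidney count 2, and it moved no other count by over 1.5 times. The numbers share no stated animal or batch, and correlations of same-numbered arrays ran at -0.239 to 0.143, so they are not taken as pairs. As a random block over tissues they had a consensus correlation of 0.0301. Xist showed the same pattern by number in all 5 tissues, so the arrays of a number may still share an animal, which the labels do not say. Of 904 alternatives for the 49 member values, 706 stayed on the same side of the threshold, 194 no longer passed, 3 newly passed and 1 turned its sign: Pttg1 in stomach, at -0.36 with the Gapdh covariate. The causes were not tested; a covariate or a left-out pair of arrays also leaves fewer degrees of freedom, and a lone wild-type array is assumed to vary like the null arrays. Dim probe sets such as those of Cdc25c, Ndc80 and Kif20a are measured with the least precision.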
